A study of Mus musculus with 4 samples.

Results

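The proteasome genes were taken as every symbol of the Psma to Psmg families in the feature lists, without the pseudogene copies. They numbered 49 of the 55487 genes in the files. The 5 genes of the immunoproteasome and its cap, Psmb8, Psmb9, Psmb10, Psme1 and Psme2, were kept apart from 41 constitutive members and from 3 tissue-specific or copied genes, Psma8, Psmb11 and Psme2b. The 49 genes held 955217 UMIs in the 20737 cells kept, which is 0.507% of all UMIs (unique molecular identifiers, 1 for each captured RNA molecule). Each of the 49 genes had at least 1 UMI in the endothelial-like cells of every library. The 4 pseudogene copies together had 3 UMIs.

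The study asked what loss of the transcription factor KLF4 in endothelial cells (EC) does to the aging brain. Single cells enriched for brain endothelium were sequenced from 4 groups, each of them 1 library: WT Cre and EC-K4KO mice, young or old. WT Cre mice carried the CdH5-Cre driver alone. EC-K4KO mice carried it with floxed Klf4, and per the study's methods Cre was tamoxifen-inducible and both genotypes received tamoxifen, while the labels name no drug. The driver acts in endothelium outside the brain as well, both sexes were used, and how many mice each library pooled was not given in the sources used here. Per the labels enrichment was by sorting or endothelial markers, and it did not remove other cells, so class sizes were set by that step and were not compared.

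Most of cytosolic protein breakdown runs through the proteasome, a barrel of alpha and beta rings with proteolytic sites on its inner face, capped by a regulatory particle that unfolds ubiquitin-tagged proteins with a ring of ATPases. Interferons induce alternative catalytic subunits and the PA28 cap, and the resulting immunoproteasome favors peptides that fit MHC class I. Cells of the immune system use it all the time, while most other cells express the constitutive catalytic subunits.

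Klf4, the targeted gene, went against its label. In endothelial-like cells it was counted at 1711 CPM in young WT Cre against 3291 in the young library labelled EC-K4KO, and at 2103 CPM in old WT Cre against 3303 in the old one. CPM is the share of a gene in all UMIs of the summed cells of that class and library, on the usual CPM scale. The count tables do not show which part of the transcript was read, so RNA from a recombined allele that still gives reads cannot be told apart from intact Klf4. EC-K4KO below therefore means the library labelled so. The number of kept cells was 4496 to 6555 per library, of which 1885 to 3317 were endothelial-like by their markers, and the median UMIs of an endothelial-like cell ran from 3767 in old EC-K4KO to 9921 in young EC-K4KO. Any pair of libraries shared 6 to 10 cell barcodes. Endothelial marker genes summed to 19054 to 21924 CPM in endothelial-like cells, with no marker at 0, which matched the labelled cell type. Values for the 4 libraries are given below young before old and, at each age, WT Cre before EC-K4KO.

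Promoters of 4 members are shown because the results below turn on them: Psmb8 and Psmb9, whose levels separated the cell classes, Psme1, which differed most with age between microglia-like and endothelial-like cells, and Psmb5, the constitutive counterpart of Psmb8. Each window runs from 250 bases before to 50 after the RefSeq transcript start on GRCm38.p6, and 41 of the 49 members had one. Capitals mark a match, on either strand, to 1 of 4 motifs: TTCNNNGAA, a gamma-activated site (Psmb8), CCAAT, the CCAAT box (Psmb9, on the opposite strand), GAAA and GAAA with 2 free bases between, an interferon-stimulated response element (Psme1, on the opposite strand), and TGACNNNGC, an antioxidant response element core (Psmb5).
Psmb8, chr17:34197945-34198244, plus strand: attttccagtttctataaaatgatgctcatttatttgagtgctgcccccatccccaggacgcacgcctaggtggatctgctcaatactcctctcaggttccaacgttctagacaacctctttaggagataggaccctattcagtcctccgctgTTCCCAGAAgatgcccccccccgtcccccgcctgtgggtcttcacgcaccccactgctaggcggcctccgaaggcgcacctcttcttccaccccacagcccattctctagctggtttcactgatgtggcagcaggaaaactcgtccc
Psmb9, chr17:34187281-34187580, minus strand: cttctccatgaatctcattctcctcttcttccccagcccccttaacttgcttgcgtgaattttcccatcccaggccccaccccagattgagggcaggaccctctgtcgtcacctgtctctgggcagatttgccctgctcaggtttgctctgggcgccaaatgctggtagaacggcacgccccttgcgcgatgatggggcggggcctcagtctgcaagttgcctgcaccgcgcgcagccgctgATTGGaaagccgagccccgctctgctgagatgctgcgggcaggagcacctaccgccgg
Psme1, chr14:55578244-55578543, plus strand: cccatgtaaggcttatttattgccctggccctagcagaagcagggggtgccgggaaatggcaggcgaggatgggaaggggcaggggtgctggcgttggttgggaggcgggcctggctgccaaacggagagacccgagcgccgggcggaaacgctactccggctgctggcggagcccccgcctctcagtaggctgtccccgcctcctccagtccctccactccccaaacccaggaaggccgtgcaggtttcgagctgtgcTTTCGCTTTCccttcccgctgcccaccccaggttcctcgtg
Psmb5, chr14:54617946-54618245, minus strand: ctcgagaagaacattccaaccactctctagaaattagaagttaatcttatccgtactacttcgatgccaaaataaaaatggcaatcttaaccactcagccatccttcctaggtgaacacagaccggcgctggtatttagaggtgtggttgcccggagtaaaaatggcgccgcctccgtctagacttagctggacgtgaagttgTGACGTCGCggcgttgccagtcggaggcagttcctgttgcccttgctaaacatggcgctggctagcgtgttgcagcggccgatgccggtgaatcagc

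The gamma-activated site was in 3 member promoters (Psmb8, Psmd2 and Psmg1) and in 8.3% of all 32851 promoter windows. The interferon-stimulated response element was in 5 (Psmb3, Psmd4, Psmd9, Psme1 and Psmg4) and in 3.44% of all. The antioxidant response element core was in 6 (Psmb5, Psmb6, Psmc6, Psmd12, Psmd9 and Psme4) and in 12.4% of all, and the CCAAT box in 14 and in 37.4% of all. A match is only a run of letters. Of the Psmb9 window, 275 bases are also part of the window of Tap1, a peptide transporter gene read from the opposite strand. The gene bodies lie at chr17:34197721-34201454 for Psmb8, chr17:34181987-34187764 for Psmb9, chr14:55578123-55581529 for Psme1 and chr14:54614119-54618022 for Psmb5 (GENCODE vM21, GRCm38). The annotation places 10 members over another gene of the same strand and 18 over a gene of the opposite strand, Psmb9 with Tap1 and Psme1 with Emc9 among them, and reads in such stretches may be uncertain. Psme2b is a near copy of Psme2, so its reads are uncertain too.

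The inducible genes differed far more between cell classes than the constitutive ones. Over the 6 classes with enough cells in every library (endothelial-, microglia-, pericyte-, smooth muscle-, astrocyte- and oligodendrocyte-like), the highest class mean was 1.19 to 2.30 times the lowest for the 41 constitutive members, with a median of 1.76. For the 5 inducible members that ratio was 4.59 to 48.5, with a median of 13.4. By gene it was 48.5 for Psmb9, 42.4 for Psmb8, 13.4 for Psme1, 10.2 for Psmb10 and 4.59 for Psme2. No constitutive role group, from the rings to the assembly chaperones, held a member with a ratio above 2.30.

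**Figure D1:**
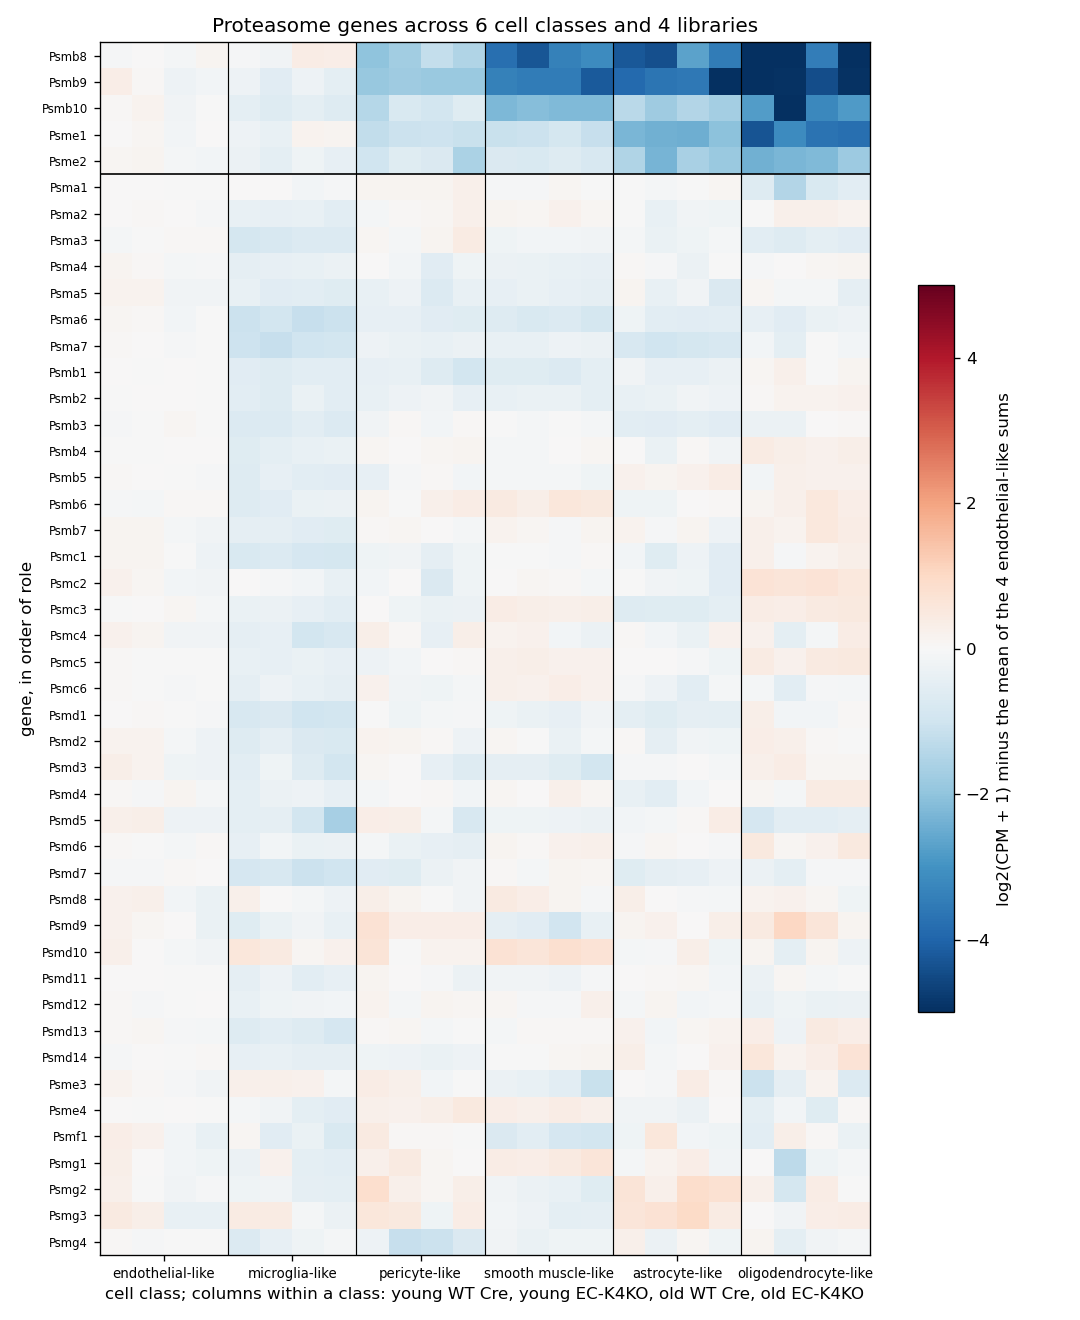
Level of 46 proteasome genes (rows, in order of role, inducible genes above the line) in 6 cell classes and 4 libraries (columns), as log2(CPM + 1) minus the mean of the 4 endothelial-like sums. Psmb8 and Psmb9 are deep blue in smooth muscle-, astrocyte- and oligodendrocyte-like cells, Psme1 and Psme2 only pale blue in smooth muscle-like cells, and the 41 constitutive rows are pale throughout.

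Psmb8, which replaces the chymotrypsin-like subunit Psmb5, was at 195, 204, 187 and 225 CPM in endothelial-like cells and at 196, 181, 260 and 258 in microglia-like cells. It was at 49.4, 59.2, 88.5 and 70.0 CPM in pericyte-like cells, at 13.9, 9.5, 18.5 and 22.1 in smooth muscle-like cells and at 9.7, 8.8, 31.0 and 17.1 in astrocyte-like cells. The pericyte-like class joined an Atp13a5-led cluster (189, 194, 139 and 103 cells) and a Ccl19-led one (19, 88, 86 and 28 cells). In the first Psmb8 was at 38.3, 28.1, 59.2 and 53.1 CPM, and in the second at 124, 98.3, 119 and 107 CPM. In oligodendrocyte-like cells it was at 2.2, 0, 17.7 and 1.2 CPM, and 19 of the 33 UMIs in old WT Cre came from 1 cell. Endothelial- and microglia-like cells overlapped in Psmb8, and all of their libraries lay above all libraries of the other 4 classes.

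In the model over the 6 classes with the library as a term (edgeR quasi-likelihood test, Benjamini-Hochberg adjustment over 14233 genes), all 5 inducible genes were lower than in endothelial-like cells in the astrocyte-, oligodendrocyte-, pericyte- and smooth muscle-like classes, and every one of these 20 calls held under each of 11 alternatives. The log2 difference of Psmb8 was -3.94 (SE 0.28, adjusted p = 8.44e-13) in astrocyte-like, -4.87 (SE 0.32, adjusted p = 2.27e-13) in oligodendrocyte-like, -3.54 (SE 0.24, adjusted p = 2.79e-13) in smooth muscle-like and -1.83 (SE 0.23, adjusted p = 1.7e-07) in pericyte-like cells. Without old WT Cre the oligodendrocyte-like value was -7.30. The pericyte-like values are for both of its clusters together. Psmb9, the inducible partner of the caspase-like subunit Psmb6, was lower by about the same amount, with log2 differences of -4.24, -5.47, -3.42 and -2.08 in the same order. Psmb10, which replaces the trypsin-like subunit Psmb7, differed by -1.69, -3.29, -1.96 and -1.12. The PA28 cap genes Psme1 and Psme2 were closer to the endothelial-like level in smooth muscle-like cells, at -0.79 (SE 0.15) and -0.47 (SE 0.15), than in oligodendrocyte-like cells, at -3.93 (SE 0.21) and -2.29 (SE 0.20). Endothelial markers summed to at most 1111 CPM in astrocyte-like cells (114 to 1111) and 605 CPM in smooth muscle-like cells (133 to 605), and the part of endothelial RNA in the remaining signal was not tested.

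Microglia-like cells, the resident macrophages of the brain, were close to endothelial-like cells in the inducible genes with TMM scaling. Psmb8 was higher by 0.45 on the log2 scale (SE 0.19, adjusted p = 0.044), a call that 2 of 11 alternatives kept and that was lost without young WT Cre (0.46), without old WT Cre (0.24) or without old EC-K4KO (0.29). Psmb9 differed by -0.05 (SE 0.14), Psmb10 by -0.22 (SE 0.15), Psme1 by 0.29 (SE 0.15) and Psme2 by 0.00 (SE 0.14), none of them past the test. Under library totals alone 3 of the 5 were lower and none higher, at a median of -0.35 beside -0.30 over all genes. Higher levels than in either class were counted in small immune classes that were too few for a test. Psmb8 was at 539, 503, 679 and 626 CPM in T and NK-like cells (22 to 47 cells a library) and at 395, 494, 432 and 604 CPM in dendritic-like cells (24 to 58 cells), a class named by its cluster, since only 7 of its 152 cells were classed so by their own marker UMIs.

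Over all members, the share called between classes has to be read against a background in which most genes differ. In astrocyte-like cells 2 members were higher and 24 lower, where 68.7% of all genes were called (34.5% higher, 34.2% lower). In oligodendrocyte-like cells 7 were higher and 13 lower, where 62.9% of all genes were called (27.6% higher, 35.2% lower). In pericyte-like cells 0 were higher and 22 lower, beside 47.6% (22.7% higher, 24.9% lower). In smooth muscle-like cells 20 were higher and 11 lower, beside 62.4% (30.2% higher, 32.2% lower). With a stricter cell filter 7 were higher and 9 lower, a setting for which the share of all genes is not given here. In microglia-like cells 6 were higher and 13 lower, beside 66.0% (34.9% higher, 31.2% lower). The split depended on the scaling: with library totals alone it was 10 and 11 in oligodendrocyte-like, 8 and 19 in smooth muscle-like and 1 and 38 in microglia-like cells, where that scaling put the median of all genes at -0.13, -0.35 and -0.30 and called 29.1%, 22.8% and 25.3% of them higher and 32.5%, 43.6% and 43.0% lower. The median of the 41 constitutive members was -0.23 in astrocyte-like, 0.00 in oligodendrocyte-like, -0.22 in pericyte-like, 0.25 in smooth muscle-like and -0.08 in microglia-like cells, beside -0.03, -0.21, -0.07, -0.06 and 0.05 over all genes.

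With TMM scaling many genes of the regulatory particle were higher in smooth muscle-like cells. All 6 ATPase genes (Psmc1 to Psmc6), which unfold the substrate, were higher than in endothelial-like cells, with a median log2 difference of 0.41, and 3 of the 6 remained called with library totals alone. Of the 14 other genes of the particle 8 were higher and 2 lower, where 30.2% of all genes were higher and 32.2% lower. With library totals alone 2 were higher and 3 lower, beside the shares given above for that scaling. As given above, fewer of all members were higher with a stricter cell filter. Psmd10, a chaperone of ATPase ring assembly, had the highest difference of any member there, at 0.98 (SE 0.11, adjusted p = 4.99e-09). Psmd10 was counted at 40.9, 37.5, 43.0 and 39.4 CPM in smooth muscle-like cells and at 29.2, 24.6, 22.7 and 21.8 CPM in endothelial-like cells, with no overlap. The catalytic subunit gene Psmb6 was higher by 0.72 (SE 0.11, adjusted p = 1.78e-06), at 272, 247, 297 and 281 CPM against 193, 190, 211 and 211. Psmf1, which encodes the inhibitor PI31, was lower by 0.53 on the log2 scale (-0.53, SE 0.16, adjusted p = 0.00492).

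The alpha ring, which gates entry to the barrel, held the greatest constitutive differences in 3 of the other classes. Psma7 was lower by 1.04 in astrocyte-like cells (-1.04, SE 0.12, adjusted p = 2.15e-08), at 172, 149, 163 and 171 CPM against 312, 305, 290 and 298 in endothelial-like cells. Psma1 was at -0.86 (SE 0.13) in oligodendrocyte-like cells, and Psma6 at -0.71 (SE 0.12) and Psma7 at -0.68 (SE 0.12) in microglia-like cells. These 4 calls held under all 11 alternatives. In pericyte-like cells the greatest was Psmg4, an assembly chaperone of the alpha ring, at -0.99 (SE 0.20, adjusted p = 0.00014). Psma8, known from the testis proteasome, was in endothelial-like cells at 13.3, 10.3, 9.6 and 10.5 CPM (1042 UMIs). It had 0 of 4007108 UMIs in oligodendrocyte-like cells, which made it at least 14.7-fold lower there against a floor of 3 counts over the group.

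The 15 genes of interferon signaling and peptide loading (Irf1, Tap1, B2m, H2-K1 and others), listed with earlier results of these data known, differed between the same classes. In astrocyte-like and oligodendrocyte-like cells all 15 were lower than in endothelial-like cells, in smooth muscle-like cells 12 were lower and none higher, in pericyte-like cells 11 were lower and 2 higher, and in microglia-like cells 5 were lower and 4 higher, beside the shares of all genes given above. In microglia-like cells these 9 are 60.0% of the list, below the 66.0% of all genes. Library totals alone gave 10 lower and 4 higher, beside the shares of all genes given above for that scaling. B2m, the light chain of MHC class I, differed by -3.74 in astrocyte-like, -3.87 in oligodendrocyte-like, -2.64 in smooth muscle-like, -1.68 in pericyte-like and 1.05 in microglia-like cells.

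The inducible share of catalytic UMIs puts these levels on 1 scale that is free of library scaling. It is the part of Psmb8, Psmb9 and Psmb10 in the UMIs of all 6 catalytic genes, and since the 6 genes may be captured unequally, a value is read only against the same share in another class or library. In endothelial-like cells it was 50.1% (95% Clopper-Pearson interval 49.4 to 50.7) in young WT Cre and 50.7% (50.2 to 51.2) in young EC-K4KO. In the old libraries it was 46.6% (45.7 to 47.4) for WT Cre and 50.2% (49.2 to 51.2) for EC-K4KO. Intervals here and below cover counting error only. Old WT Cre was the lowest of the 4 and the others overlapped. The share was 51.2 to 57.1% in microglia-like, 71.7 to 76.4% in T and NK-like, 62.1 to 71.7% in dendritic-like and 54.4 to 62.0% in border macrophage-like cells. Border macrophage-like cells were named by cluster, and 39 of the 189 were classed so by their own marker UMIs. For the classes further from the immune ones the share was lower. It was 22.4 to 27.8% in pericyte-like, 8.85 to 9.71% in smooth muscle-like, 11.2 to 15.4% in astrocyte-like and 0.89 to 5.49% in oligodendrocyte-like cells. The pericyte-like share depends on the mix of its clusters. Psmb10 was at 36.9, 45.8, 45.7 and 61.3 CPM in the Atp13a5-led and at 153, 133, 108 and 160 CPM in the Ccl19-led cluster. Neuron-like cells had 10.4 to 13.2%, nearly all of it Psmb10 (62.5 to 95.4 CPM, against 0 to 4.8 CPM of Psmb8).

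**Figure D2:**
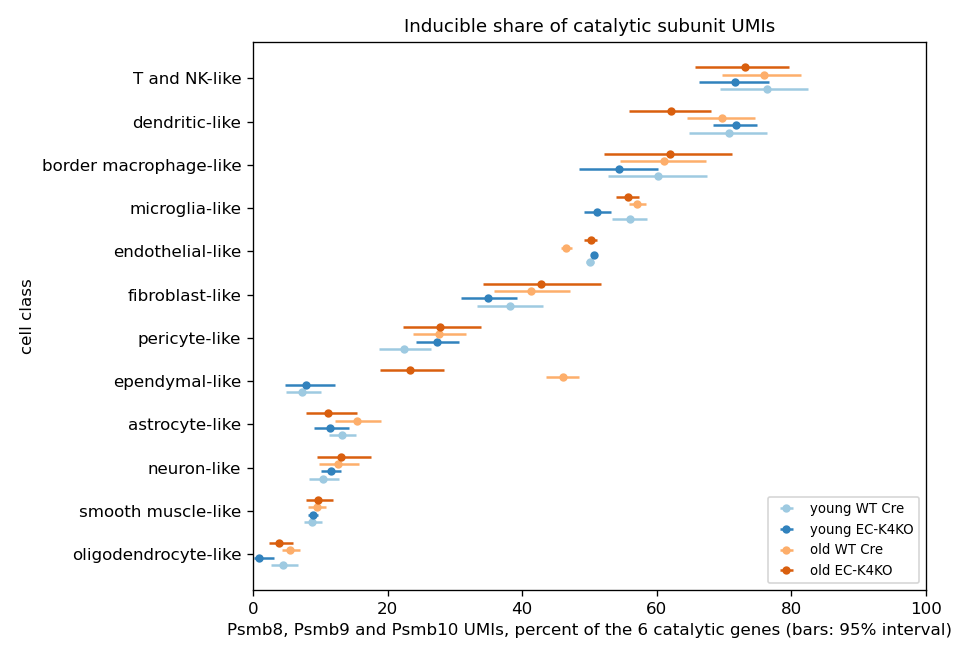
Share of Psmb8, Psmb9 and Psmb10 in the UMIs of the 6 catalytic genes (x axis, percent) by cell class (y axis) for each of the 4 libraries, with 95% Clopper-Pearson intervals. Immune classes sit at the top, endothelial-like cells near 50% and smooth muscle-like cells near 9%, and ependymal-like cells reach 46.0% in old WT Cre only.

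Cells with a Psmb8 UMI were counted at equal depth. With each cell thinned to 1000 UMIs, Psmb8 was detected in 16.7%, 15.7%, 17.04% and 19.2% of endothelial-like cells and in 17.3%, 16.9%, 20.9% and 19.9% of microglia-like cells. In smooth muscle-like cells it was detected in 1.86%, 0.52%, 2.37% and 3.97%. It was found in 0 of 25, 57, 25 and 18 neuron-like cells, used as a reference for free RNA, which allows shares of cells with a UMI of up to 12%, 5.26%, 12% and 16.7%. So few cells cannot tell the smooth muscle-like shares from that reference. Neuron-like cells were also deeper before thinning, so free RNA may be a smaller part of their UMIs. The level of free RNA in smooth muscle-like cells was not tested. Unthinned, 11.5%, 8.33%, 11.9% and 12.7% of smooth muscle-like cells had a Psmb8 UMI at a median depth of 9162, 9382, 6424 and 5759 UMIs, and 12.0%, 7.02%, 8.0% and 0% of neuron-like cells at 43076, 40261, 20874 and 24260 UMIs. Unthinned, 66.8%, 73.3%, 55.5% and 56.3% of endothelial-like cells had a Psmb8 UMI, where the median depth was 6367, 9921, 4700 and 3767 UMIs.

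Within endothelium, many members were higher in arterial-like than in capillary-like cells. The median depth was 6018, 11715 and 22906 UMIs in the arterial-like clusters and 4160 and 5961 UMIs in the capillary-like ones. The part of depth in the difference was not tested. Of 48 members tested, 28 were higher in arterial-like cells and 0 lower, where 35.0% of all 13272 genes were called, 19.4% of them higher and 15.6% lower. The median log2 difference was 0.16 over the members and -0.02 over all genes. With library totals alone 25 were higher and 0 lower, beside 18.4% and 17.3% of all genes. Leaving out 1 library gave 19 (without old WT Cre) to 26 members called, all higher, and the share of all genes in those fits is not given here.

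Psmb8 was at 235, 227, 224 and 277 CPM in arterial-like cells and at 170, 165, 150 and 179 CPM in capillary-like cells, with no overlap, a log2 difference of 0.55 (SE 0.06, adjusted p = 3.46e-06). Psmb9 was at 156, 126, 111 and 123 CPM against 116, 92.8, 69.5 and 76.9, also a difference of 0.55 (SE 0.06, adjusted p = 3e-06), and here the ranges overlapped although each library was higher in its arterial-like cells. Psme2 was higher by 0.32 (SE 0.06), whereas its PA28 partner Psme1 (0.03, SE 0.05) and Psmb10 (0.10, SE 0.05) did not pass. Of the constitutive genes, the calls were 6 of 7 in the alpha ring, 4 of 4 in the beta ring, 5 of 6 ATPases and 8 of 14 other regulatory particle genes. Psmd7, part of the lid, was highest at 0.40 (SE 0.06, adjusted p = 2.38e-05), followed by Psmd1 and Psma7, both at 0.37. None of the 3 constitutive catalytic genes was called, with Psmb5 at -0.09 (SE 0.04), Psmb6 at 0.03 (SE 0.05) and Psmb7 at -0.02 (SE 0.05). The inducible share was accordingly 54.4%, 53.3%, 49.95% and 53.3% in arterial-like and 47.0%, 46.6%, 42.1% and 45.7% in capillary-like cells, higher in the arterial-like cells of each library. Of the interferon and peptide loading list, 10 of 15 genes were higher in arterial-like cells and none lower, among them H2-D1 (0.73) and Tap1 (0.54).

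The endothelial-like clusters that the marker lists named neither arterial-, capillary- nor venous-like differed from capillary-like cells in few members. The largest had Cyp2e1, Icam1, Slc38a5 and Vcam1 among its leading genes, the next Cyp2e1, Wnt5a and Slc38a5, and the smallest Plvap and Esm1. Whether these clusters hold venous cells was not tested. Psmb8 (0.38, SE 0.06, adjusted p = 0.000444) and Psmb9 (0.21, SE 0.07, adjusted p = 0.0282) were higher and Psma8 (-0.43), Psmb7 (-0.17) and Psmc3 (-0.16) lower, where 20.5% of all genes were called. Psmb8 remained called in all 10 alternatives. The count fell from 5 to 1 without young EC-K4KO or without old WT Cre and to 3 without young WT Cre. Cells of the cluster named venous-like were too few for a test (18 in young WT Cre), and their inducible share was 59.0%, 56.9%, 48.7% and 54.6%.

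Age was tested in each class by a model of age and genotype label over the 4 libraries, which leaves 1 residual degree of freedom and has 2 libraries on each side. The p-values rest on how far the 4 libraries depart from additive age and genotype effects, with dispersion shared across genes. With 1 library per group they do not measure a spread between libraries of the same group. Nothing in the sources used here says how many animals stand behind a library. In endothelial-like cells 8 of 48 members passed, 3 higher and 5 lower in old libraries, where 17.7% of all 14893 genes passed (10.8% higher, 6.91% lower). With library totals alone 0 were higher and 16 lower, where that scaling moved the median of all genes from -0.02 to -0.17 and called 7.92% of them higher and 21.9% lower, and DESeq2 called 0 members (6 at an unadjusted p under 0.05) and 6.57% of all genes. The member median was 0.01, beside -0.02 over all genes.

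Psmg3, an assembly chaperone of the alpha ring, was counted at 26.9, 24.4, 15.01 and 14.7 CPM, both old libraries below both young ones. It had the greatest change of any member in endothelial-like cells, falling by 0.64 on the log2 scale (SE 0.10, adjusted p = 0.0064). The other members that fell were the base chaperone Psmd5 (-0.41, SE 0.10, at 29.99, 30.6, 20.6 and 20.6 CPM), the inhibitor Psmf1 (-0.39, SE 0.11), and the lid subunits Psmd8 (-0.32, SE 0.08) and Psmd3 (-0.32, SE 0.07). The members that rose were Psmb6 (0.29, SE 0.07, adjusted p = 0.0299), the alpha ring gene Psma3 (0.26, SE 0.07) and the lid gene Psmd7 (0.26, SE 0.07). The 5 genes that fell were also called with library totals alone. Psmb6 was at 193, 190, 211 and 211 CPM, again with no overlap, but its rise and those of Psma3 and Psmd7 were not among the calls made with library totals alone.

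None of the 5 inducible genes passed the age test in endothelial-like cells with TMM scaling, while with library totals alone 3 of the 5 were lower and none higher, at a median of -0.22 beside -0.17 over all genes. Psmb8 changed by 0.19 (SE 0.08, adjusted p = 0.121), with the highest value in old EC-K4KO and the lowest in old WT Cre. Psmb9 was at 130, 108, 86.2 and 93.0 CPM, lower in both old libraries, a change of -0.25 (SE 0.09, adjusted p = 0.0964) that was called without a filter on low counts. Psmb10 changed by -0.07 (SE 0.07), Psme1 by 0.02 (SE 0.07) and Psme2 by -0.09 (SE 0.07). As ratios of 1 library to another, with no test, 2 members were past 1.5-fold between old and young WT Cre, Psmg3 at -0.84 and Psmb9 at -0.59, where 11.1% of all genes were, and 3 between old and young EC-K4KO, Psmg3 at -0.73, Psmf1 at -0.59 and Psmd8 at -0.59, where 9.94% were.

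Partners of the proteasome outside the Psm families also changed in old endothelial-like cells. Of 24 such genes, listed with earlier results of these data known, 6 rose and 1 fell with TMM scaling, beside the 10.8% and 6.91% of all genes. With library totals alone 5 rose and 7 fell, beside 7.92% and 21.9%, and with DESeq2 4 rose and 1 fell, beside 5.34% and 1.24%. Nfe2l2, which encodes the oxidative stress factor NRF2, was at 123, 130, 164 and 190 CPM and rose by 0.63 (adjusted p = 0.0013). Among the others, the zinc finger genes Zfand5 (0.57) and Zfand2a (0.44), the maturation protein Pomp (0.46) and the proteasome-bound thioredoxin Txnl1 (0.31) also rose. Adrm1, a ubiquitin receptor of the regulatory particle, was at 28.0, 22.7, 10.7 and 10.7 CPM and fell by 1.09 (adjusted p = 0.0011). Of the interferon and peptide loading list, Irf8 (1.52), Irf1 (1.01), H2-K1 (0.57) and H2-D1 (0.36) rose, while Tap2 (-0.31) was among those that fell. In all 4 of 15 were higher and 2 lower, beside the 10.8% and 6.91% of all genes. With library totals alone 3 were higher and 5 lower, beside 7.92% and 21.9%.

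In microglia-like cells 19 of 48 members rose with age and 0 fell, where 24.3% of all 11416 genes passed (14.9% higher, 9.35% lower). The member median was 0.22, beside -0.02 over all genes. With library totals alone 3 rose (Psmb8, Psme1 and Psmg4) and 5 fell (Psmc4, Psmd3, Psmd5, Psmd8 and Psmg3), at a median of -0.10 beside -0.34 over all genes, of which 6.65% rose and 30.7% fell. Of the 19, 3 were thus called on both scales. DESeq2 called 3, Psmb6, Psmb8 and Psme1, which is 6.25% of the members beside 6.04% of all genes.

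Psme1 was at 203, 185, 275 and 266 CPM in microglia-like cells, both old libraries above both young ones, a rise of 0.80 (SE 0.10, adjusted p = 1.68e-05). Psmb8 was at 196, 181, 260 and 258 CPM with the same order, a rise of 0.78 (SE 0.10, adjusted p = 2.36e-05). These 2 were called under all 8 alternatives. The other inducible genes, Psme2 (0.40, SE 0.12, adjusted p = 0.0171), Psmb9 (0.36, SE 0.12, adjusted p = 0.037) and Psmb10 (0.32, SE 0.12, adjusted p = 0.0479), passed as well, but their CPM overlapped between ages: Psmb9 was at 85.4, 69.1, 86.1 and 72.6 and Psmb10 at 100.3, 92.0, 102 and 90.6 CPM.

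Of the constitutive genes in microglia-like cells, all 4 of the beta ring without exchange (Psmb1 to Psmb4, 0.40 to 0.52) rose, as did the catalytic genes Psmb6 (0.60, SE 0.11) and Psmb5 (0.32, SE 0.11), and 3 of the alpha ring, Psma3 (0.49), Psma7 (0.46) and Psma4 (0.41). Psmg4 had the greatest change among them, at 31.2, 38.3, 44.3 and 47.9 CPM and 0.73 (SE 0.14, adjusted p = 0.000942). Of the regulatory particle, 1 of 6 ATPases (Psmc5, 0.34) and 3 of 14 others (Psmd9, 0.51, Psmd12, 0.46, and Psmd4, 0.38) rose. As ratios of 1 library to another, 0 members were past 1.5-fold between old and young WT Cre, where 26.1% of all genes were, and 4 were lower between old and young EC-K4KO, Psmd5 (-1.31), Psmg1 (-0.77), Psmd3 (-0.74) and Psmg3 (-0.72), where 33.9% were.

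Old microglia-like cells were also made up differently. The P2ry12-led cluster held 86.9% and 88.4% of the microglia-like cells in the young libraries and 42.7% and 43.6% in the old ones, and a cluster with Ccl3 and Ccl4 among its leading genes held 9.23%, 9.23%, 47.9% and 31.8%. The remaining cluster, led by Cst7 and Spp1, held 3.87%, 2.39%, 9.4% and 24.6%. Psmb8 was at 193, 172, 258 and 245 CPM in the P2ry12-led cluster, at 210, 182, 219 and 215 CPM in the Ccl3 and Ccl4 cluster and at 215, 310, 417 and 312 CPM in the Cst7-led cluster, which had only 13 and 14 young cells. The exact 95% Poisson intervals of old and young libraries did not overlap in the P2ry12-led cluster. They overlapped in the one with Ccl3 and Ccl4, and in the Cst7-led one they were apart between old and young WT Cre and overlapped between the libraries labelled EC-K4KO. The part of this makeup in the change over all microglia-like cells was not tested. The microglia markers summed to 29788, 31162, 21458 and 22076 CPM, with none of the 9 at 0. Endothelial markers there summed to 382, 286, 158 and 272 CPM. In the P2ry12-led cluster alone 6 members rose, Psmb8 (0.64), Psme1 (0.54), Psma3, Psma7, Psmb1 and Psmb4, and 0 fell, where 8.4% of all 10270 genes were called (6.18% higher, 2.22% lower). Of the 24 partner genes 9 rose with age in microglia-like cells with TMM scaling, led by Nfe2l2 (1.16) and Txnl1 (0.67), and Ube3c fell (-0.59), beside the 14.9% and 9.35% of all genes. Scaled by library totals alone 3 rose and 7 fell, beside 6.65% and 30.7%, and with DESeq2 5 rose and 0 fell, beside 5.12% and 0.929%. Of the interferon and peptide loading list H2-D1 (1.23), H2-K1 (1.09), B2m (0.55) and Irf1 (0.42) rose and Ifngr1 (-0.47) fell, beside the 14.9% and 9.35% of all genes. With library totals alone 2 rose and 5 fell, beside 6.65% and 30.7%.

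**Figure D3:**
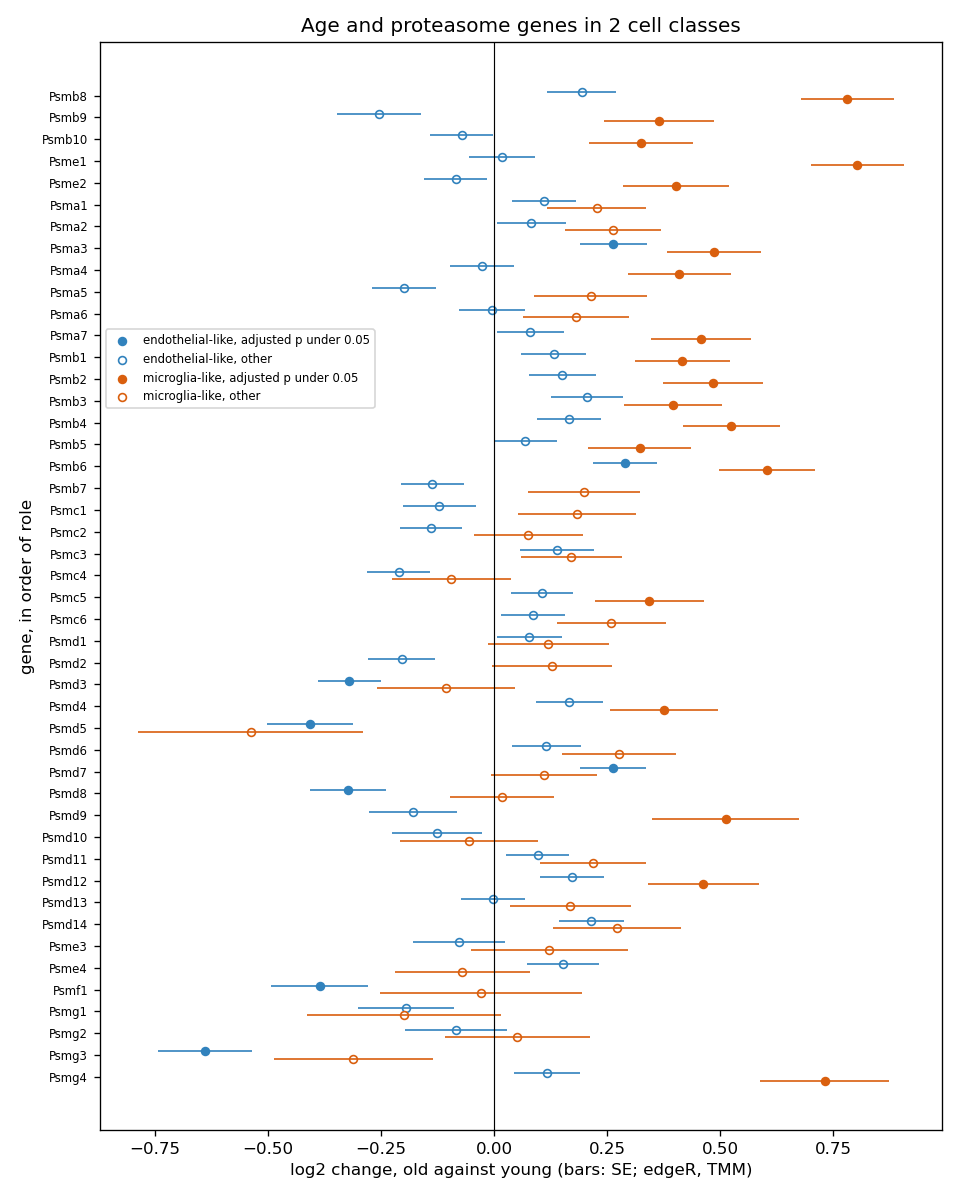
Log2 change, old against young (x axis, bars are the SE of the edgeR fit with TMM scaling), of 46 proteasome genes (y axis, in order of role) in endothelial-like and microglia-like cells, filled where the adjusted p was under 0.05. The microglia-like points lie mostly right of 0 and of the endothelial-like points, with Psmb8 and Psme1 farthest at 0.78 and 0.80.

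The difference of the age change between the classes was tested in 1 model over both. Psme1 (0.82, SE 0.14, adjusted p = 0.0057), Psmb9 (0.66, SE 0.16, adjusted p = 0.0319) and Psmb8 (0.62, SE 0.14, adjusted p = 0.0298) had a higher age change in microglia-like than in endothelial-like cells, where 4.71% of all 14880 genes differed (2.74% higher, 1.97% lower). For Psmb9 the CPM given above were lower in old endothelial-like cells and overlapped between ages in microglia-like cells. The other 2 inducible genes were at 0.53 (Psme2, adjusted p = 0.0684) and 0.44 (Psmb10, adjusted p = 0.146). None of the 41 constitutive members passed by edgeR, with a median of 0.24 beside 0.02 over all genes, although 13 had an unadjusted p under 0.05. Psme1 was the 1 member that DESeq2 and the fit with library totals also called. Psmb8 and Psmb9 were lost in both, with adjusted p of 0.176 and 0.211 by DESeq2 and of 0.108 and 0.109 with library totals.

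In smooth muscle-like cells 1 of 46 members passed, where 6.47% of all 10668 genes did (3.82% higher, 2.64% lower). Psmb8 was at 13.9, 9.5, 18.5 and 22.1 CPM, higher in both old libraries, a rise of 0.85 (SE 0.26, adjusted p = 0.0201). With DESeq2 the fold stayed at 0.86 and the call was lost. With a stricter cell filter the change was 0.10 (adjusted p = 0.977) and without doublet removal 0.30 (adjusted p = 0.51), so most of it was gone. As given above, detection of Psmb8 per cell in this class could not be told from that in neuron-like cells, and the level of free RNA was not tested. Endothelial markers in these cells summed to 605, 290, 133 and 138 CPM and microglia markers to 47.6, 58.1, 53.2 and 40.8 CPM, with 1 of the 9 at 0 in old WT Cre. Between the old and young libraries labelled EC-K4KO Psmb8 was past 1.5-fold at 1.24 (95% counting interval 0.61 to 1.79) and Psme3 at -0.76, where 11.2% of all genes were, and 0 members were for WT Cre, where 9.91% were. No member passed the test of its age change against that in endothelial-like cells by edgeR (0 called, 2 at an unadjusted p under 0.05, DESeq2 0 and 0), where 2.68% of all genes differed (0.407% higher, 2.28% lower).

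Ependymal-like cells, which line the ventricles, had too few young cells for a test (29 and 20, against 113 and 38 in old libraries), and their values are given as counted. They too were named by cluster, with 49 of the 200 classed so by their own marker UMIs. Psmb8 was at 13.4 CPM (exact 95% Poisson interval 6.11 to 25.4), 11.9 (3.85 to 27.7), 219 (196 to 244) and 94.6 (66.3 to 131), and the intervals of young and old did not overlap. Psmb9 was at 20.8, 16.6, 212 and 73.6 CPM, Psmb10 at 10.4, 14.2, 68.2 and 34.2, and Psme1 at 81.7, 47.4, 195 and 121. The constitutive counterpart Psmb5 was at 254, 180, 245 and 250 CPM, so the inducible share went from 7.23% and 7.89% to 46.0% and 23.4%. MHC class I genes were also lower in both young than in both old libraries, B2m at 65.3, 52.2, 966 and 271 CPM and H2-K1 at 198, 422, 1837 and 1009. The ependymal markers summed to 12294, 13676, 9630 and 11809 CPM, and microglia markers to 87.6, 68.8, 222 and 57.8. Thinned to 1000 UMIs, 3.45%, 0%, 13.3% and 5.26% of these cells had a Psmb8 UMI, where 0 of 20 cells allows up to 15% of cells with a UMI at that depth, and unthinned 10.3%, 25.0%, 71.7% and 55.3% did, although the young cells were the deeper ones (median 17303, 16343, 12178 and 9914 UMIs).

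**Figure D4:**
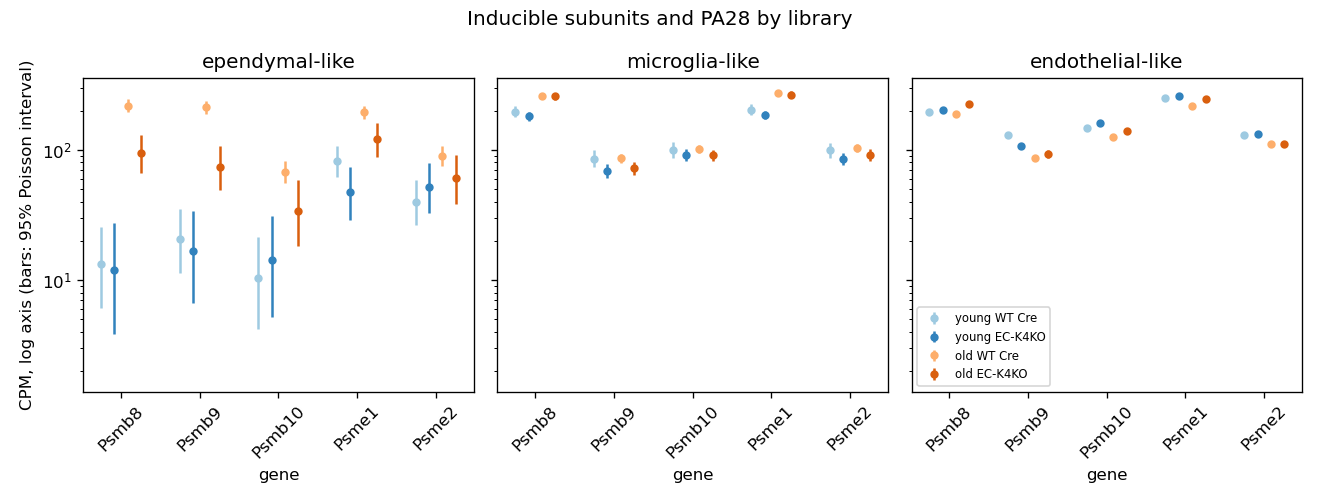
Level in CPM (y axis, log scale, bars are exact 95% Poisson intervals) of the 5 inducible genes (x axis) in ependymal-, microglia- and endothelial-like cells of the 4 libraries. In ependymal-like cells Psmb8 and Psmb9 lie at 11.9 to 20.8 CPM when young and at 73.6 to 219 CPM when old, while in endothelial-like cells Psmb8 lies at 187 to 225 CPM and Psmb9 at 86.2 to 130 CPM.

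No member passed the test of the genotype label. In endothelial-like cells 0 of 48 passed by edgeR, where 1.41% of all genes did (0.792% higher, 0.618% lower), with 2 at an unadjusted p under 0.05 and DESeq2 at 0 and 0. In microglia-like cells 0 of 48 passed (0.578% of all genes, 0.333% higher and 0.245% lower, 2 unadjusted, DESeq2 0 and 0) and for smooth muscle-like cells 0 of 46 (0.422%, 0.197% higher and 0.225% lower, 0 unadjusted, DESeq2 0 and 0). The median over members was 0.00 in endothelial-like cells, beside -0.00 over all genes. The 2 with an unadjusted p under 0.05 in endothelial-like cells were Psmb8 (0.19, SE 0.08, adjusted p = 0.393) and Psmb10 (0.18, SE 0.07, adjusted p = 0.391).

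Pair by pair, no member was past 1.5-fold in endothelial-like cells, where 2.54% of all 8431 genes were for the young libraries and 2.66% for the old ones. Among 47 members the log2 ratio of EC-K4KO to WT Cre ran from -0.37 (Psma8) to 0.14 (Psmb10) between the young libraries, and from -0.36 (Psmd9) to 0.26 (Psmb8) between the old ones. Psmb8 was at 0.07 (95% counting interval 0.01 to 0.12) and 0.26 (0.18 to 0.34), Psmb10 at 0.14 (0.08 to 0.20) and 0.15 (0.05 to 0.25), and Psme1 at 0.05 (0.01 to 0.10) and 0.16 (0.09 to 0.24). Psmb9 was at -0.27 (-0.33 to -0.20) and 0.11 (-0.01 to 0.23). The counting interval left out 0 on the same side in both pairs for 5 of 47 members, Psmb8, Psmb10 and Psme1 higher and Psmd4 and Psmd9 lower, and for 15.1% of all genes. In microglia-like cells Psmf1 was at -0.71 in the young pair, where 4.99% of all genes were past the fold, and Psmd5 at -0.83 in the old pair, where 4.46% were. In smooth muscle-like cells Psmd9 (0.59) and Psme3 (-0.59) were past it in the old pair, where 7.8% were, and 0 in the young pair, where 2.93% were.

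**Figure D5:**
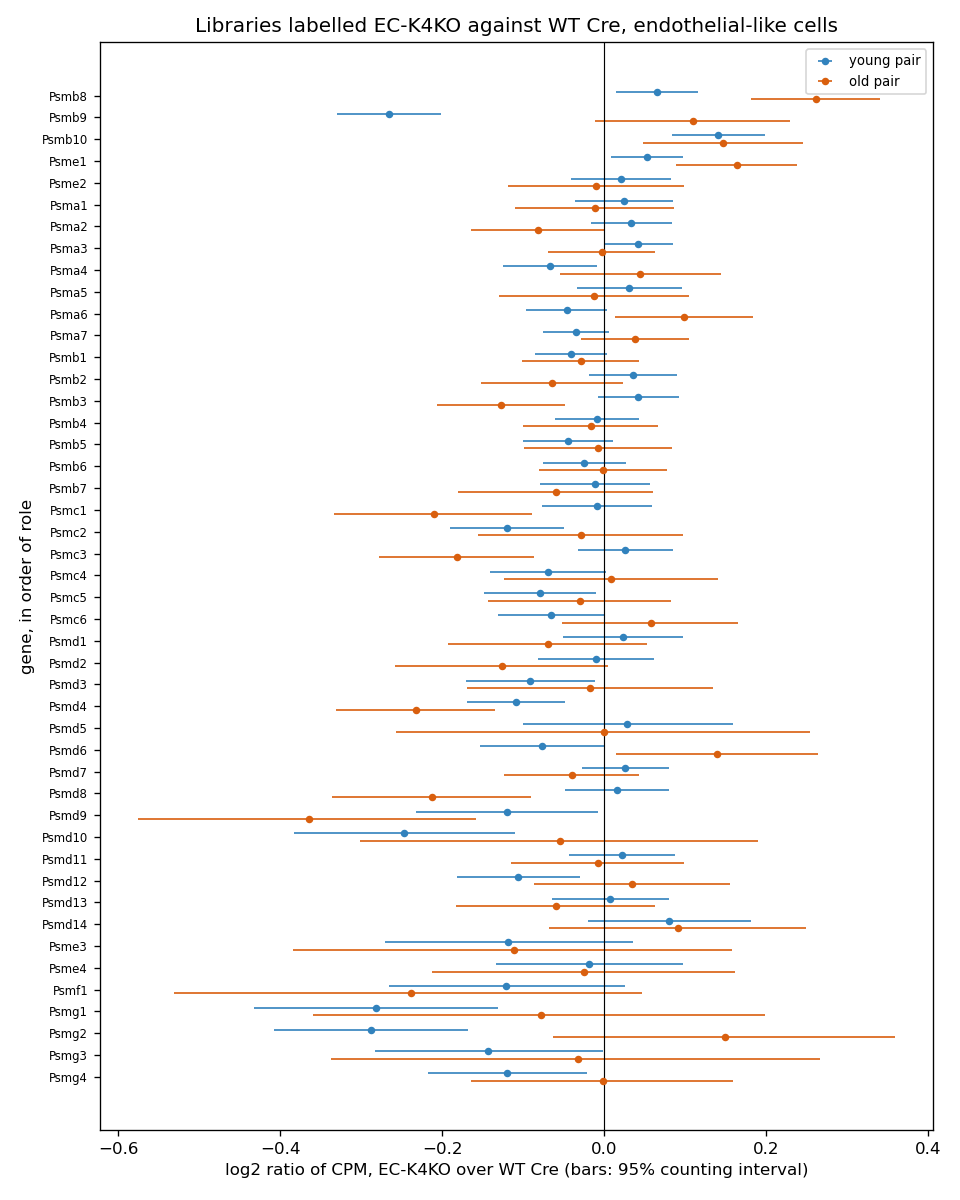
Log2 ratio of CPM in endothelial-like cells of the library labelled EC-K4KO over WT Cre (x axis, bars are 95% counting intervals) for 46 proteasome genes (y axis, in order of role) in the young and the old pair. All points lie between -0.36 and 0.26, and Psmb8, Psmb10 and Psme1 lie right of 0 in both pairs.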

How the data were processed

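Droplet single-cell RNA-seq was analysed in 4 libraries, 1 per group. The deposited matrices hold raw UMI counts of genes by barcodes. Per the file headers the authors used Cell Ranger 6.0.2, and the submitters' processing notes name mm10/GRCm38 and Seurat. The proteasome members and gene lists were chosen with earlier results of these data known.

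Barcodes under 500 genes or 1000 UMIs, or with over 10% of UMIs from mitochondria, were dropped. Per library, 0.8% per 1000 cells with the highest doublet scores were removed (147 to 385 cells), since the automatic Scrublet threshold marked only 17 to 145. Cells were clustered (scanpy 1.11.5, leidenalg 0.10.2; 2000 variable genes without the members and lists, 30 components, 20 neighbours, resolution 1) and clusters named "X-like" from marker lists; 1600 cells stayed unnamed. By each cell's own marker UMIs 16445 of 20737 cells could be classed.

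UMIs were summed by library and class and tested with edgeR 4.0.16 (R 4.3.3; glmQLFit, TMM, filterByExpr; p-values adjusted over all genes, threshold 0.05). The test of the age change between classes was added after seeing the data. DESeq2 1.42.0, other scalings, filters and left-out libraries were alternatives. The class and segment models had the library as a term. Pair ratios added 0.5 UMIs, were limited to genes averaging 10 CPM or more, and carry exact conditional binomial intervals (95%, counting error only). Scripts were tested on simulated data. Totals were 46794601, 88812581, 51945411 and 30655769 UMIs, fewest in old EC-K4KO. Precision followed the UMIs of each class. Microglia-like cells held 2084440 UMIs in young WT Cre and 4215722 in old EC-K4KO. Psmb11 was too low to be tested in any fit, Psme2b in the class fits, and Psme2b and Psma8 in smooth muscle-like cells. Of the 25 listed partner genes 24 were in the files, and Paaf1 was not analysed here. The genes named are the 5 inducible and 3 constitutive catalytic ones, every member passing the endothelial age or genotype model, the highest and lowest of each role group where they carry a result, and partners that passed; a few others were chosen after their values were seen. Some genes of the 2 pathway lists are counted in the lists but are not reported here by name.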

Additional observations from a re-analysis of the deposited data

Results flagged for a closer look

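The age change of 3 inducible genes differed between microglia-like and endothelial-like cells by a test of the difference itself (edgeR interaction term, 4 libraries). The difference in log2 change was 0.82 for Psme1 (adjusted p = 0.0057), 0.66 for Psmb9 (adjusted p = 0.0319) and 0.62 for Psmb8 (adjusted p = 0.0298), where 4.71% of all genes differed. Only Psme1 was also called by DESeq2 and with library totals alone, while Psmb8 and Psmb9 were called in 1 of 3 alternatives, with a highest adjusted p of 0.176 and 0.211. For Psmb9 it joined a change of 0.36 in microglia-like and -0.25 in endothelial-like cells. The shift among the microglia-like clusters with age (42.7% and 43.6% of cells in the P2ry12-led cluster in old libraries, 86.9% and 88.4% in young ones) moved with it, as did a Cst7-led cluster (9.4% and 24.6% in old, 3.87% and 2.39% in young libraries), and the part of either in the difference was not tested.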

How the results depend on the processing

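Limits: each group was 1 library, so age and genotype label rest on 1 residual degree of freedom, library and group cannot be told apart within a pair, and a rise relative to the other genes cannot be told apart from a rise in amount. No paired analysis was possible because each group holds replicate 1 only. Leaving out a library from the age and genotype models left no residual degree of freedom and was not run.

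Of the counts and values that answer a comparison, 148 stayed within the limits set for them and 31 moved; of the single genes, 463 kept direction and call, 113 lost the call and 2 turned. With DESeq2 the members called were 0 for age in endothelial-like, 3 in microglia-like and 0 in smooth muscle-like cells, 1 for the age difference and 1 for the other endothelial clusters. In the same order DESeq2 called 6.57%, 6.04%, 0.572%, 1.08% and 14.8% of all genes. With library totals alone the members called were 16, 8 (Psmb10 at -0.00066 and Psmb5 at -0.0036 turned) and 1 for the age difference, and 39 in the microglia-like and 14 in the pericyte-like class comparison. DESeq2 size factors gave 5 for endothelial age. The P2ry12-led cluster alone, chosen after seeing the data, gave 6, beside 8.4% of all genes. A stricter cell filter gave 0 for smooth muscle age, as did no doublet removal, and 16 in the smooth muscle-like class comparison. Leaving out 1 library gave 1 to 4 for the other endothelial clusters. For the filters, size factors and left-out libraries the share of all genes called is not given here. Those counts alone do not show whether the members or all genes moved. Members past the fold between old and young WT Cre (2) were 1 with TMM, with size factors, at 50 CPM and with the stricter filter, and 4 with cells weighted equally; between old and young EC-K4KO (3) they were 1 with TMM, with size factors, at 50 CPM and without the venous-like cluster. Unthinned, 66.8%, 73.3%, 55.5% and 56.3% of endothelial-like cells had a Psmb8 UMI. The cause of these changes was not tested.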

Other observations

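Members were also counted in small classes that entered no model. Fibroblast-like cells (28 to 47 a library) had an inducible share of 38.1%, 35.0%, 41.4% and 42.7%, between pericyte-like and endothelial-like cells. In border macrophage-like cells (26 to 72 a library, named by cluster) Psmb8 was at 236, 197, 279 and 284 CPM and Psme1 at 178, 166, 204 and 284 CPM. Neuron-like cells held Psme3, the nuclear PA28 gamma cap, at 82.2, 71.5, 65.3 and 76.3 CPM, against 17.8 to 22.5 CPM in endothelial-like cells, and Psmb10 at 62.5, 78.4, 92.4 and 95.4 CPM with Psmb8 and Psmb9 at 4.8 CPM or lower in each library.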
